A study of Arabidopsis thaliana with 18 samples.

Results

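The response of the hy1 mutant to a day of light was taken as the comparison of 3 libraries of hy1 hypocotyls after 24 h of light with 3 libraries of hy1 hypocotyls in darkness (0 h), 6 of the 18 libraries of the series. It was followed over all expressed genes, 20955 tested of 32833 in the count table. The hypocotyl is the seedling stem between root and cotyledons, and all plants were Arabidopsis thaliana. The hy1 mutant is impaired in HY1, a plastid haem oxygenase on the way to the light-absorbing group of phytochrome. The allele is not named in the labels, so whether it still makes some active enzyme is not known here. Poly-A RNA was sequenced from hy1 and from the wild type (WT) at 0 h in darkness and at 12 h and 24 h after transfer from darkness to light, with 3 libraries a group, in a study on the light control of adventitious roots. The hy1 12 h libraries and the WT libraries at 0 h and 24 h set the hy1 24 h values in context, and all 18 libraries, those of WT at 12 h included, share the estimate of spread behind each call.

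Phytochromes are red and far-red photoreceptors that need their linear tetrapyrrole chromophore to absorb light, and plants without a working haem oxygenase are known for long hypocotyls in red and far-red light. Cryptochromes, phototropins and the ultraviolet-B receptor carry other chromophores and do not depend on HY1. In a dark-grown seedling, PIF transcription factors and the COP1/SPA ubiquitin ligase hold photosynthesis genes down and keep the hypocotyl elongating. Light removes these brakes, plastids turn into chloroplasts, and the hypocotyl stops growing.

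No library was kept in darkness for 24 h, so light cannot be told apart from the elapsed time, the age of the seedling or the hour of the day. The titles of the WT libraries speak of a mock treatment and those of hy1 do not, and the genotypes are those of the sample descriptions, so any treatment given along with genotype cannot be told apart from the mutation. The labels do not state whether replicates are separate cultures, and the p-values therefore rest on the spread of the deposited libraries, which may be technical. Total counts ran from 43481881 to 44565658 in the hy1 dark libraries, from 42472977 to 51721733 in the hy1 24 h libraries and from 38469946 to 59905064 over all 18. Log2 profiles of hy1 replicates correlated across genes at 0.9874 to 0.9913, while those of WT were lower at 12 h (0.9475 to 0.9781, with replicate 1 the farthest from the others) and for replicate 3 at 24 h (0.9675 and 0.9713). Results that compare with WT were also fitted without replicate 3 at 24 h and replicates 2 and 3 at 12 h, a set of 3 WT libraries taken over from earlier results of these data and not from these correlations, and, as an alternative added after seeing the data, without replicate 3 at 24 h and replicate 1 at 12 h, the pair of WT libraries that correlated least with their groups. Markers of root hairs summed to 0.0469 to 0.237 CPM (counts scaled to a common library size) in darkness and 0.0901 to 0.184 CPM at 24 h, and seed storage proteins to at most 0.947 CPM in both groups, so that no gene of either list passed the filter on low counts. In bulk RNA, fewer cells of a type and less RNA per cell cannot be told apart. Values are TMM-scaled CPM in the order of replicates 1, 2 and 3, differences are log2 fold changes ± standard error, and a gene was called at an adjusted p under 0.05.

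HY1 (AT2G26670, chromosome 2, 11341548 to 11343693, TAIR10) stood at 35.3, 36.3 and 31.6 CPM in hy1 in darkness and at 18.4, 19.4 and 19.1 CPM after 24 h of light. The groups did not overlap, as for most genes tested, and the transcript fell by 0.86 ± 0.13 on the log2 scale (adjusted p = 7.8e-05). In WT it stood at 42.4, 44.5 and 47.9 CPM in darkness and at 40.5, 43.2 and 33.9 CPM at 24 h, and the change in hy1 was lower than that in WT by 0.66 ± 0.18 on the log2 scale (interaction log2 = -0.66, adjusted p = 0.036). The transcript was thus still made in all hy1 libraries, which does not show whether its protein is active. HY2, the phytochromobilin synthase that completes the chromophore, rose from 2.23, 2.41 and 2.76 to 3.95, 6.28 and 5.99 CPM (1.13 ± 0.23, adjusted p = 0.0011). Of the other haem oxygenase genes, HO2 rose from 6.46, 6.32 and 5.93 to 12.4, 12.1 and 12.5 CPM (0.98 ± 0.19, adjusted p = 0.00057), with a change of 0.97 in WT (interaction 0.01). HO3 had no read in any of the 6 libraries and HO4 had a read in only one of them, in darkness.

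A day of light changed a large part of the hy1 transcriptome. Of the genes tested, 8484 (40.5%) passed the test, 4273 (20.4%) higher at 24 h and 4211 (20.1%) lower. The median change over all genes tested was -0.00, and that of the called genes in absolute size was 0.83. At least 2-fold changes were 1929 upward and 1619 downward, at least 10-fold 333 and 242, and at least 100-fold 38 and 36. Genes that rose held 12.8% to 13.7% of the counts in darkness and 26.4% to 27.4% at 24 h, whereas genes that fell held 34.8% to 36.9% and then 20.0% to 20.7%. There were 44 genes that rose from no read in darkness and 28 that fell to no read at 24 h. The dark and 24 h groups did not overlap for 6741 tested genes that were higher at 24 h and 6915 that were lower.

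The largest rises with a mean of at least 5 CPM were in photosynthesis and flavonol genes and in some with no known part in either. RBCS1B, a small subunit of Rubisco, had 0 reads, 0.0687 CPM and 0 reads in darkness and 26.8, 40.3 and 34.2 CPM at 24 h, a ratio of 1434 with an exact 95% counting interval of 491 to 6958. That interval takes the mates of a fragment as separate counts and may be too narrow. The fitted change of RBCS1B of 10.34 ± 0.85 (adjusted p = 1.2e-07) became 13.58 without dark replicate 2, the only one with reads. RBCS1B, RBCS2B and RBCS3B are near-identical, and reads that map to several places were not counted, so the level of RBCS1B rests on uniquely placed reads. CHS, chalcone synthase and the first enzyme of flavonoid synthesis, rose from 0.0947, 0 and 0.234 to 104, 144 and 129 CPM (10.14 ± 0.44, adjusted p = 1.8e-10, 11.32 without dark replicate 3).

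AT3G57020, annotated as a calcium-dependent phosphotriesterase family protein, rose from 0.284, 0.252 and 0.328 to 209, 206 and 203 CPM (9.47 ± 0.23, adjusted p = 3.9e-13). Its replicates lay closer together than those of RBCS1B or CHS. FLS1, flavonol synthase, rose by 7.7 ± 0.33, and RPP4, an annotated disease resistance protein, from 0.0947, 0.275 and 0.187 to 33.3, 33.9 and 32.1 CPM (7.45 ± 0.34). AT3G56290 rose by 7.25 ± 0.22, the short-chain reductase gene SDR1 by 7.04 ± 0.16 and the glutaredoxin family gene AT1G64500 by 6.85 ± 0.29. The antenna genes LHCB1.2 (7.28 ± 1.02) and LHCB1.1 (7.08 ± 0.93) completed the 10 largest rises. They too have near-identical copies, so their levels rest on uniquely placed reads.

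The largest falls were in genes whose dark replicates differed widely. EXPA12, an alpha-expansin, one of the proteins that loosen cell walls, stood at 10.2, 36.3 and 12.6 CPM in darkness and had no read in the 24 h libraries, so it was at least 915-fold lower (taking 3 counts in the whole group as the floor). CDR1, an aspartyl protease gene linked to disease resistance, stood at 8.5, 64.4 and 6.75 CPM in darkness and had no read in 2 of the 24 h libraries and 0.0461 CPM in the other, a ratio of 1860 (515 to 15365). AT4G11610, a C2 domain gene, stood at 15.2, 19.6 and 2.32 CPM and then at 0.0395, 0 and 0.0461 CPM (fell by 8.61 ± 1.18, adjusted p = 0.00011). Dark replicate 2 was the highest for all 3 genes. The fitted change of CDR1 was -10.59 with all libraries, -8.77 without dark replicate 2 and -13.22 without 24 h replicate 3, its only 24 h library with reads.

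Others among the 10 largest falls were CBF4 and CBF1, cold-response factors described below with their relatives, the beta-glucosidase gene DIN2, the glyoxal oxidase-related AT1G19900, RTFL12, AT5G44260 and AT4G25580. AT1G19900 fell from 63.1, 144 and 86.9 to 0.474, 0.135 and 0.461 CPM (fell by 8.08 ± 0.5, adjusted p = 5.6e-09). RTFL12, of the ROTUNDIFOLIA-like small peptides, fell by 6.61 ± 0.66 (fell by 7.66 without 24 h replicate 1), the zinc finger gene AT5G44260 by 6.29 ± 0.69 and AT4G25580, annotated as a CAP160 protein, by 6.14 ± 0.74 (by 5.41 without dark replicate 1). All these genes had non-overlapping groups, which the rule that chose them required.

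The 250 bases before the annotated start of the 3 largest rises and the 3 largest falls are shown because they are the promoters of the most changed genes, read 5′ to 3′ from the RefSeq genome TAIR10.1 with the strand of each gene. Capitals mark matches, on either strand, to the G-box CACGTG (its own reverse complement), the I-box GATAAG or CTTATC, the evening element core AATATCT or AGATATT, and the auxin element TGTCTC or GAGACA, none of which contains another.
RBCS1B (chr5:15385321-15385570, minus strand): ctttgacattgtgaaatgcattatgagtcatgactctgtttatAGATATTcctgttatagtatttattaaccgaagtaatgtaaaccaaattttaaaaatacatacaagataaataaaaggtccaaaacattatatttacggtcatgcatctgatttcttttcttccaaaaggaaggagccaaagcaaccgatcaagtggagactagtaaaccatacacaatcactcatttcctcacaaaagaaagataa
CHS (chr5:4488226-4488475, plus strand): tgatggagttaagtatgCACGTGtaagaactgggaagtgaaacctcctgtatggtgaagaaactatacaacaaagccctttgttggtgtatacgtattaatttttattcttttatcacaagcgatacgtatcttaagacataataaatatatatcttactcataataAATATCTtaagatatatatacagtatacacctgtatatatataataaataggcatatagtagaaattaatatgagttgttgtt
AT3G57020 (chr3:21100520-21100769, minus strand): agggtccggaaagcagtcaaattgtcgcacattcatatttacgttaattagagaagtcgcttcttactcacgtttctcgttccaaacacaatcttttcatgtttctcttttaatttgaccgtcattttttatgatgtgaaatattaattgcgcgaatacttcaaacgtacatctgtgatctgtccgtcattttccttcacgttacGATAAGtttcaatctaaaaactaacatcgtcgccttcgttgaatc
EXPA12 (chr3:5190304-5190553, plus strand): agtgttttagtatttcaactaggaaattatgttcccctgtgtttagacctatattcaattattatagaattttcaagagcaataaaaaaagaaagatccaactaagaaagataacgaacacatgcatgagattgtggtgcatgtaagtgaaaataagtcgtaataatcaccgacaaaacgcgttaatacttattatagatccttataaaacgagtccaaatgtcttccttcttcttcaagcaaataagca
CDR1 (chr5:12594177-12594426, plus strand): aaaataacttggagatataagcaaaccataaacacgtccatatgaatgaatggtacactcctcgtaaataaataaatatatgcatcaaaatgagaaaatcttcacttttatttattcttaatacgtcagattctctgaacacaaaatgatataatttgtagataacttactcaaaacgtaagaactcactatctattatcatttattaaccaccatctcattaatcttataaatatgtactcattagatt
AT4G11610 (chr4:7018090-7018339, minus strand): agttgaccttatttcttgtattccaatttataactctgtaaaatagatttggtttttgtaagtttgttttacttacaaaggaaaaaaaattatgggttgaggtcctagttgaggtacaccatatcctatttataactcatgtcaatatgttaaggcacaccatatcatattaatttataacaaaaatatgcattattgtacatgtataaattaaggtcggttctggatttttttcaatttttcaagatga

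The window of RBCS1B held an evening element core, that of CHS a G-box and an evening element core and that of AT3G57020 an I-box, and the windows of the 3 falling genes held none of the 4 motifs. Over the 20871 tested genes with such a window, 7.25% held a G-box, 12.3% an I-box, 10.1% an evening element core and 10.6% an auxin element. Among genes that rose the shares were 7.68%, 13.3%, 11% and 11%, and among genes that fell 8.16%, 13.8%, 11% and 10.9%. Rising and falling genes thus held each motif at nearly the same share. For the I-box the share was 15.6% among genes that rose at least 2-fold and 13.7% among those that fell at least 2-fold. A match is a run of letters and no proof of a bound site.

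In abundance, the largest gains were in PYK10, GRP3S, LHCB1.3, RCA and GSTU19. PYK10, the beta-glucosidase that fills the ER bodies of roots and hypocotyls, rose from 14055, 13339 and 14199 to 31659, 28519 and 28465 CPM (1.09 ± 0.23, adjusted p = 0.0014) and took 2.88% to 3.1% of all counts at 24 h. Per length, its mean level went from 7677 to 16361 RPKM (reads per kilobase of exon, on the same scale), against 36.9 to 744 RPKM for RCA and 86.2 to 1613 RPKM for LHCB1.3. GRP3S, a short glycine-rich protein, rose from 4776, 4382 and 4873 to 9398, 8289 and 8181 CPM (0.88 ± 0.18).

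Among the largest losses in abundance were those of CAT3, TIP2, EBP and FDH. CAT3, a catalase, fell from 14648, 15165 and 14683 to 6670, 6280 and 5931 CPM (fell by 1.24 ± 0.15, adjusted p = 6.5e-06). EBP, an ethylene-responsive element binding factor, fell from 6441, 6576 and 5059 to 1661, 1780 and 1492 CPM (fell by 1.87 ± 0.25), and FDH, formate dehydrogenase, from 3462, 4841 and 3302 to 1221, 1113 and 1068 CPM (fell by 1.77 ± 0.15). For these 3 genes the groups lay far apart. TIP2 is described with the aquaporins.

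**Figure D1:**
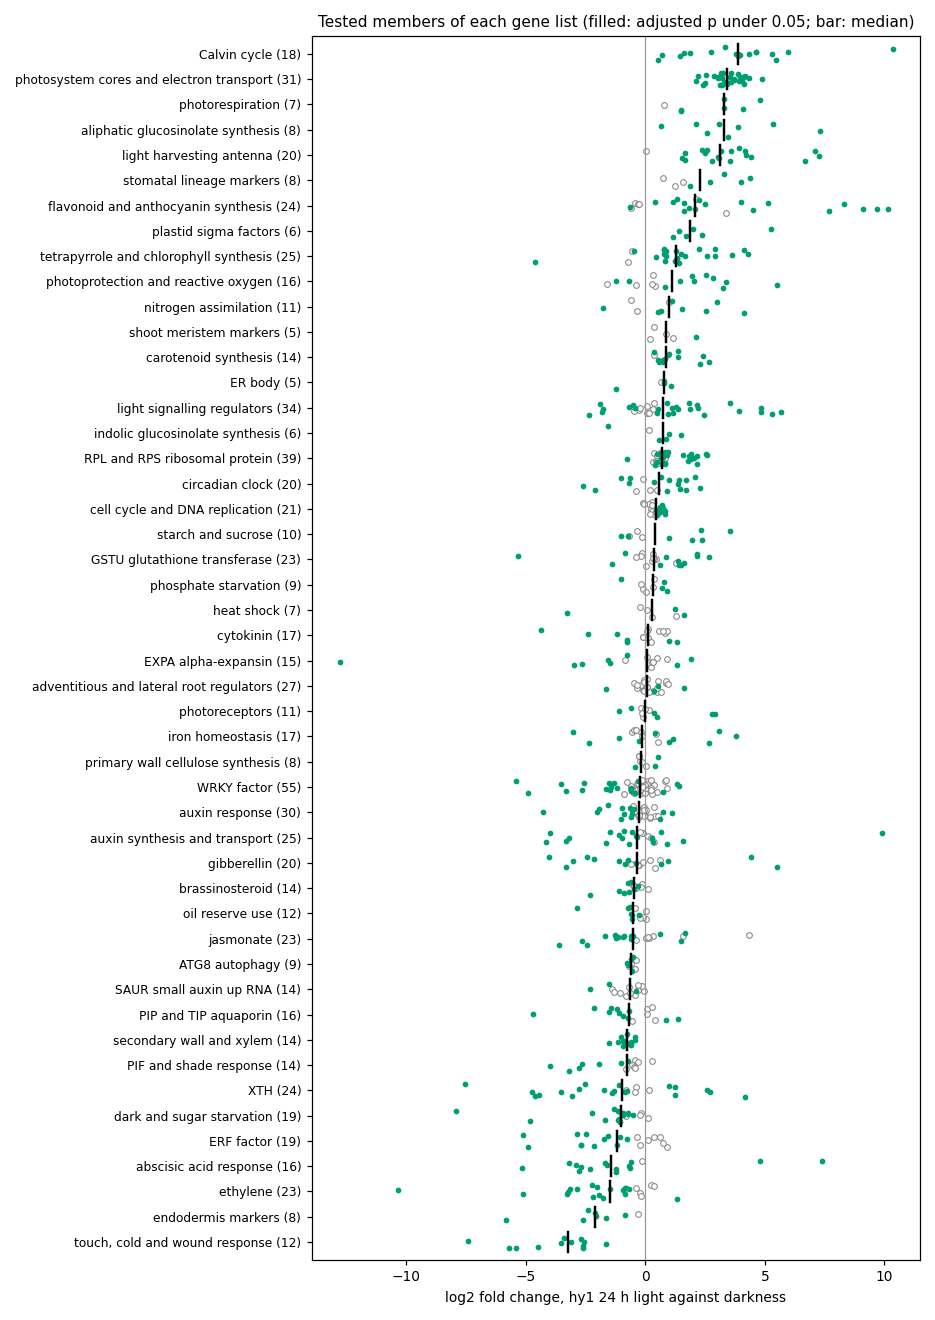
Log2 fold change of each tested member of a gene list in hy1, 24 h of light against darkness, with filled points at adjusted p under 0.05, open points otherwise, and a black bar at the median. The numbers in brackets are members tested. Calvin cycle (median 3.87), photosystem (3.43) and antenna genes (3.13) lie at the rising end, and touch, cold and wound genes (-3.25) and endodermis markers (-2.1) at the falling end.

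Genes of the photosynthetic apparatus rose nearly without exception, whereas 20.4% of all genes tested rose and 20.1% fell. The light harvesting antenna proteins, which bind chlorophyll and pass energy to the photosystems, had 19 of 20 tested members higher and none lower, with a median of 3.13. Of the photosystem subunits and electron carriers 31 of 31 rose (median 3.43), and of the Calvin cycle enzymes, which fix carbon dioxide, 18 of 18 (median 3.87). Photorespiration had 6 of 7 higher (median 3.3). The same 4 medians were 2.84, 3.26, 3.65 and 2.52 in hy1 at 12 h, against the same dark libraries, and 2.31, 2.68, 3.51 and 3.03 in WT at 24 h. Over all genes tested the medians of those comparisons were 0.01 and 0.02.

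LHCB2.1, a major antenna protein of photosystem II, stood at 6.75, 4.12 and 1.78 CPM in darkness and at 416, 465 and 424 CPM at 24 h (6.69 ± 0.52, adjusted p = 7.3e-08). LHCB1.3 stood at 119, 131 and 68.4 and then at 1695, 2417 and 1841 CPM (4.23 ± 0.42). LHCB1.1 was more uneven, with 16.2 CPM in 24 h replicate 1 against 82.9 and 81.7 CPM in the others. In WT, LHCB2.1 went from 21.2, 6.29 and 19.5 to 209, 250 and 136 CPM, and the change in hy1 was the higher by 3.03 ± 0.6 (interaction adjusted p = 0.0043). It was one of 2 antenna genes with a called interaction, beside LHCB2.2 (2.65 ± 0.74, adjusted p = 0.034), while 4 were higher and 2 lower without the 3 WT libraries and 3 higher and 1 lower without the pair. Of all genes tested, 5.18% were called higher and 3.49% lower by the interaction, and without the pair 1843 genes were higher and 1111 lower. For LHCB2.1 and LHCB2.2 the mean dark level was lower in hy1 than in WT.

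PSBS, the photosystem II protein that sheds excess light energy as heat, rose from 6.15, 4.93 and 2.39 to 96.7, 166 and 138 CPM (4.9 ± 0.48, adjusted p = 8.2e-07). PSAF, the plastocyanin docking subunit of photosystem I, rose from 34.2, 31.5 and 25 to 278, 306 and 285 CPM (3.26 ± 0.2), and PSBR from 36.4, 28.9 and 24.1 to 486, 528 and 541 CPM (4.12 ± 0.34). Dark replicate 3 held the lowest level for each of these genes and for LHCB2.1, LHCB1.3, FBA2 and GOX1, and 24 h replicate 1 held the lowest level after light for all 7.

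RCA, the activase that frees Rubisco of inhibitors, rose from 80.3, 83.9 and 68.1 to 1511, 1683 and 1497 CPM (4.34 ± 0.26, adjusted p = 4.2e-09). FBA2, a plastid fructose-bisphosphate aldolase, rose from 14.3, 6.3 and 3.84 to 461, 550 and 509 CPM (5.96 ± 0.46). GOX1, the glycolate oxidase of photorespiration, rose from 6.27, 1.99 and 1.01 to 63.3, 109 and 82.2 CPM (4.78 ± 0.65). RCA was among the few such genes that were also higher at 24 h than at 12 h, where its mean was 713 CPM (1.13, adjusted p = 0.0079).

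**Figure D2:**
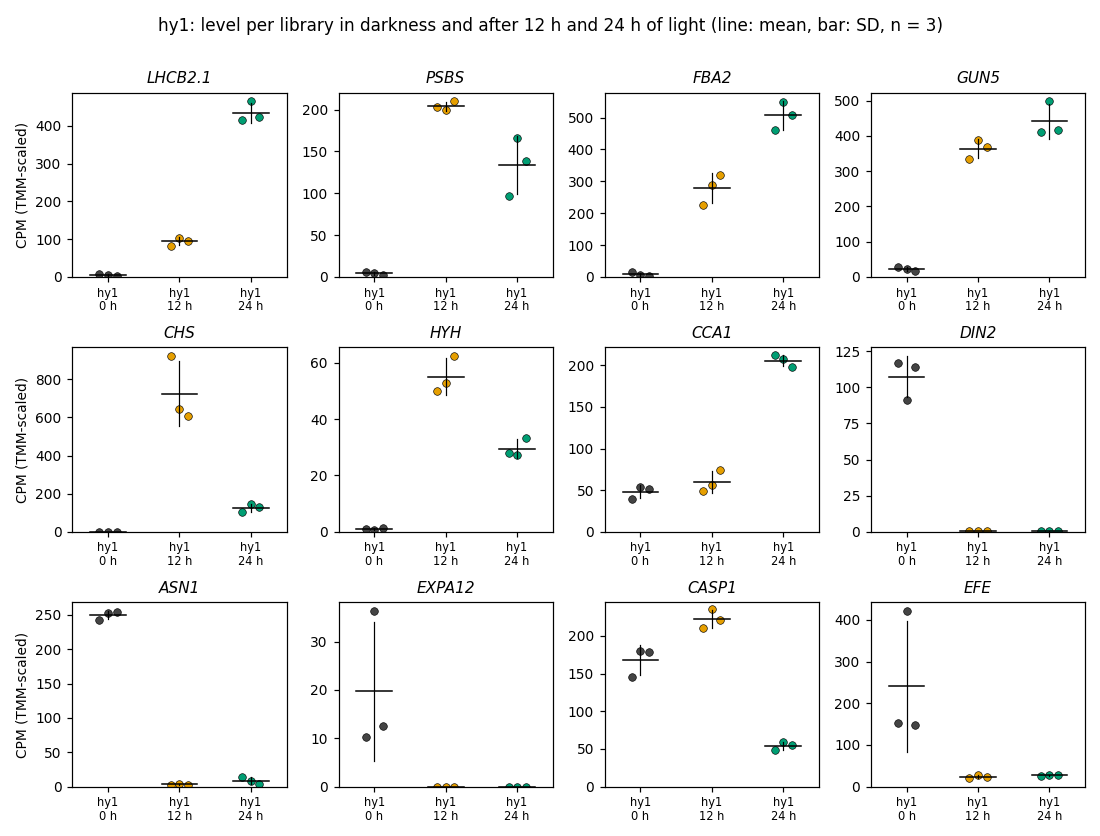
Level per library of 12 genes in hy1 in darkness and after 12 h and 24 h of light, in TMM-scaled CPM on linear axes that start at 0, with a line at the mean and a bar for the SD (n = 3). LHCB2.1 and GUN5 stand highest at 24 h, CHS at 12 h, and DIN2, ASN1, EXPA12 and EFE are high in darkness alone.

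Tetrapyrrole synthesis makes chlorophyll, haem and, through HY1 and HY2, the phytochrome chromophore. Of its 25 tested genes 21 rose and 2 fell, against 20.4% and 20.1% of all genes tested. The median of the list was 1.28 at 24 h, 1.09 at 12 h and 1.46 in WT. GUN5, the magnesium chelatase subunit at the branch to chlorophyll, rose from 26.9, 22.5 and 17.9 to 410, 499 and 417 CPM (4.3 ± 0.22, adjusted p = 9.7e-10). CRD1, a cyclase subunit, rose from 15.1, 11.3 and 9.02 to 184, 222 and 218 CPM (4.14 ± 0.21), and CHLG, chlorophyll synthase, by 3.62 ± 0.21.

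The genes that fell were PORA and HEMA2. PORA, the protochlorophyllide reductase known for its loss in light, fell from 7.76, 9.0 and 1.43 to 0.119, 0.54 and 0.0922 CPM (fell by 4.6 ± 0.94, adjusted p = 0.001), with the lowest dark value again in replicate 3. HEMA2, the second copy of the enzyme that starts the pathway, fell from 36.5, 38.3 and 50.5 to 32.2, 30.7 and 27.2 CPM (fell by 0.47 ± 0.13, adjusted p = 0.0099), while HEMA1 rose by 0.87 ± 0.15. PORC rose by 1.39 ± 0.26. GUN4 had at most 0.237 CPM in these 6 libraries (adjusted p = 0.37), with 73% of its exon length shared with another gene.

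Nuclear genes that serve the plastid rose as well. All 6 sigma factors, which direct the plastid RNA polymerase, rose (median 1.85), against 20.4% of all genes tested. SIG5 stood at 1.51, 1.51 and 2.01 CPM in darkness and at 65.5, 67.2 and 62.8 CPM at 24 h (5.27 ± 0.15, adjusted p = 2.1e-12), and it was higher at 24 h than at 12 h (0.81, adjusted p = 0.001). Of the carotenoid synthesis genes 13 of 14 rose (median 0.88), among them PSY, phytoene synthase, from 14.7, 19.9 and 15.5 to 30.4, 36 and 32.7 CPM (0.99 ± 0.19). A list of ribosomal protein genes matched by RPL or RPS symbol may also hold members outside the plastid. Led by RPL15 and RPL12-A, 26 of its 39 tested members rose and 1 fell (median 0.71), against 20.4% and 20.1% of all genes tested. RPL15 went from 16.4, 14.1 and 11.7 to 68.2, 97.1 and 88.1 CPM (2.59 ± 0.26). Plastid-encoded transcripts, which poly-A selection largely removes, took 0.00097% to 0.00121% of counts in darkness and 0.0019% to 0.00771% at 24 h.

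Of the photoreceptor genes 4 of 11 rose and 2 fell, against 20.4% and 20.1% of all genes tested. PHYA, the phytochrome that is most abundant in darkness, fell from 551, 527 and 490 to 266, 243 and 222 CPM (fell by 1.1 ± 0.16, adjusted p = 4.7e-05), and CRY2, a cryptochrome, by 0.61 ± 0.14. PHYB rose from 127, 128 and 130 to 183, 184 and 170 CPM (0.48 ± 0.14, adjusted p = 0.012). CRY3 rose from 2.3, 1.58 and 2.11 to 12.8, 13.1 and 15.2 CPM (2.78 ± 0.16) and PHOT2, the high-light phototropin, from 15.7, 13 and 13.5 to 102, 120 and 98.4 CPM (2.92 ± 0.13), although 38.8% of its exon length is shared with another gene.

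PHOT1, the phototropin of weak blue light, was the 1 receptor gene of 11 called with a higher change in hy1 than in WT. Of the 11, 1 was called lower, against 5.18% higher and 3.49% lower of all genes tested. Without the 3 WT libraries, and also without the pair, 2 were higher and 1 lower. PHOT1 stood at 111, 108 and 88.3 CPM in darkness and 138, 129 and 129 CPM at 24 h in hy1 (0.36 ± 0.14, adjusted p = 0.043). In WT it stood at 341, 263 and 246 CPM and then at 98.3, 101 and 112 CPM, so that the interaction was 1.81 ± 0.19 (adjusted p = 3.2e-05). Most of that difference lay in the dark libraries, where the WT level was the higher.

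Among regulators of light signalling 19 of 34 rose and 7 fell (median 0.73), against 20.4% and 20.1% of all genes tested. HYH, the homologue of the light-response factor HY5, rose from 1.14, 0.687 and 1.31 to 28.1, 27.1 and 33.2 CPM (4.82 ± 0.21, adjusted p = 1.9e-10). HY5 itself rose from 15.3, 16 and 16.9 to 20.8, 22.8 and 26.6 CPM (0.54 ± 0.13, adjusted p = 0.0034), against 10.2, 11.5 and 12.6 to 30.4, 37 and 42.5 CPM in WT (interaction -1.14 ± 0.18, adjusted p = 0.001). Its hy1 mean was 46.3 CPM at 12 h, above that at 24 h (adjusted p = 0.00028). The B-box genes BBX25 (5.28 ± 0.14) and BBX31 (5.67 ± 0.46) rose steeply, as did RUP2 (3.53 ± 0.14), a repressor of ultraviolet-B signalling, and SPA1 (1.87 ± 0.14), a partner of COP1.

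PIF3, a repressor of photosynthesis genes in darkness, fell from 91.5, 130 and 93.5 to 28, 32.8 and 30.4 CPM (fell by 1.79 ± 0.15, adjusted p = 1.2e-07). PIF4, a promoter of elongation, fell from 29, 25.2 and 26.6 to 14.2, 19 and 17.5 CPM (fell by 0.67 ± 0.19, adjusted p = 0.01), whereas its WT level dropped from 51.6, 52.4 and 58.6 to 7.7, 6.19 and 9.5 CPM. The change of PIF4 was higher in hy1 by 2.13 ± 0.27 (interaction adjusted p = 0.00014), and its 12 h mean in hy1 was 5.37 CPM, below the 24 h level (24 h against 12 h 1.66, adjusted p = 0.00011). GLK2, an activator of chloroplast genes, rose by 1.38 ± 0.21, and CGA1, a GATA factor of greening, by 3.93 ± 0.7 at levels of at most 2.21 CPM.

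The circadian clock genes moved both ways, 11 of 20 higher and 5 lower, against 20.4% and 20.1% of all genes tested. The morning genes CCA1 and LHY rose, CCA1 from 39.6, 53.3 and 51.7 to 212, 207 and 198 CPM (2.09 ± 0.18, adjusted p = 1.6e-07). LUX, of the evening complex, fell from 96.8, 93.5 and 90.0 to 21.9, 23.9 and 19.8 CPM (fell by 2.09 ± 0.1, adjusted p = 6e-10), which was 1.39 ± 0.14 further than in WT (interaction log2 = -1.39, adjusted p = 2.4e-05). GI fell by 1.03 ± 0.18 and TOC1 by 0.67 ± 0.11.

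Clock genes also stood out between 12 h and 24 h of light in hy1, where 1025 genes of the 20955 (4.89%) were called, 493 higher (2.35%) and 532 lower (2.54%). That count is sensitive, since it fell to 522 to 663 when any of the 6 libraries was left out and was 3500 without the 3 WT libraries and 2832 without the pair. Of the 20 clock genes, 10 were higher at 24 h than at 12 h and 5 lower. PRR9 was 5.14, 8.91 and 6.98 CPM in darkness, 1.65 CPM on average at 12 h and 22.1, 21.8 and 25.3 CPM at 24 h (24 h against 12 h 3.79, adjusted p = 4.2e-08). LNK2 went from a mean of 83.1 to 58.8 and 269 CPM at the same times, and LNK1 from 38 to 16.1 and 70.7 CPM. The 12 h and 24 h comparisons with darkness share the dark libraries, and 24 h against 12 h shares the 24 h libraries with the main comparison.

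The other genes that differed most between 12 h and 24 h were M17, BCAT4, AK3 and AT5G06980 upward and CASP5, AT2G23910, FLS1, TT7 and CHS downward. M17, a late embryogenesis abundant protein, had 0.852, 0.367 and 0.375 CPM in darkness, 0.644 CPM on average at 12 h and 27.2, 16.8 and 21.1 CPM at 24 h (24 h against 12 h 5.09, adjusted p = 4.9e-06). In WT at 24 h it had 0.977, 1.54 and 0.619 CPM, and the change from darkness was higher in hy1 by 4.52 ± 0.63 (interaction adjusted p = 0.00029). AT5G06980 was at 56.5, 65.5 and 64.9 CPM in darkness, 8.24 CPM on average at 12 h and 60.8, 54.8 and 59.2 CPM at 24 h, so that its 24 h and dark levels overlapped. AT2G23910 had the opposite course, with means of 3.74, 39.4 and 5.31 CPM. Of the 171 genes at least 2-fold lower at 24 h than at 12 h with a promoter window, 17.5% held an evening element core, and of the 213 at least 2-fold higher 15.5%, against 10.1% of all genes tested.

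Flavonoid synthesis, which makes ultraviolet screens and red anthocyanins, had 17 of 24 tested genes higher and 1 lower than in darkness. The shares of all genes tested were 20.4% and 20.1%, and the median of the list was 2.09. At 12 h the median of the list had been 3.65, and 12 of the 24 were lower at 24 h than at 12 h, against 2.54% of all genes tested. CHS had a mean of 725 CPM at 12 h and of 126 CPM at 24 h (24 h against 12 h fell by 2.53, adjusted p = 5.7e-05), and FLS1 of 97.6 and 15.1 CPM (fell by 2.69, adjusted p = 1.5e-06). TT7, the flavonoid 3′-hydroxylase, stood at 2.13, 2.86 and 1.83 CPM in darkness, at 30.0 CPM on average at 12 h and at 4.88, 4.64 and 5.51 CPM at 24 h (24 h against 12 h fell by 2.58).

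In WT the 24 h median of the list was 3.53, and 6 of its 24 members had a lower change in hy1, 10 without the 3 WT libraries and also without the pair. A lower change was called for 3.49% of all genes tested. CHIL, a chalcone isomerase-like protein, went from 3.5, 3.48 and 4.05 to 9.25, 13.2 and 11.8 CPM in hy1 and from 4.66, 3.54 and 2.83 to 51.3, 63.5 and 50.2 CPM in WT (interaction -2.27 ± 0.3, adjusted p = 0.0002). MYB12, a factor that switches on flavonol genes, had 14.8, 15 and 13.2 CPM in WT at 24 h against 2.07, 2.0 and 2.81 CPM in hy1 (interaction -2.59 ± 0.33, adjusted p = 0.00016). For CHS itself, at 1343, 1544 and 1230 CPM in WT at 24 h, the interaction did not pass the test (-1.33 ± 0.68, adjusted p = 0.29), and its hy1 dark levels rested on few reads.

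Late enzymes towards anthocyanin had no or few reads in darkness. DFR had no read there and 0.474, 3.47 and 3.04 CPM at 24 h, at least 96-fold higher, and GSTF12 was at least 64.4-fold higher. For both genes, 24 h replicate 1 was the lowest. The regulators PAP1 (adjusted p = 0.18) and TT8 (adjusted p = 0.053) did not pass the test. F3H, with 93.8% of its exon length shared with another gene, did not pass the filter on low counts. The one gene of the list that fell was PAL1, an entry enzyme of phenylpropanoids (fell by 0.63).

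The photoprotective early light-induced proteins rose, ELIP1 from 0.473, 0.389 and 0.281 to 8.77, 16.5 and 27.7 CPM (5.52 ± 0.5) and ELIP2 from 1.94, 3.05 and 3.37 to 5.47, 12.3 and 15.1 CPM (1.97 ± 0.35, adjusted p = 0.00031). Both were lower than at 12 h, where their means were 69.9 and 51.3 CPM. ELIP2 went from 1.12, 1.26 and 1.25 to 43.6, 49.6 and 24.7 CPM in WT, and its change was lower in hy1 (interaction -3.05 ± 0.51, adjusted p = 0.0012).

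Over all genes tested, the change at 24 h differed between hy1 and WT in 1816 (8.67%), higher in hy1 for 1085 (5.18%) and lower for 731 (3.49%), in 3568 without the 3 WT libraries and in 2954 without the pair that correlated least. Of the called genes 1784 were also called in the first of these fits and 1755 in the second. Those higher had a median change of -0.08 in hy1 and of -1.37 in WT, and those lower of -0.3 in hy1 and 0.64 in WT. Across all 20955 genes the log2 changes in hy1 and WT correlated at 0.756, as a description, since genes are not independent replicates.

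**Figure D3:**
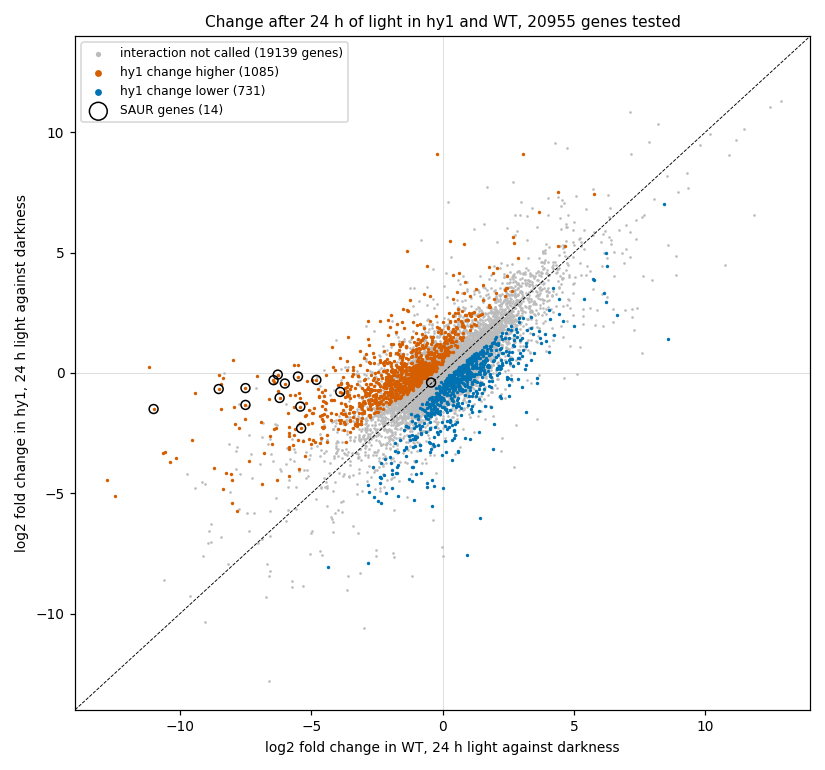
Log2 fold change at 24 h of light against darkness in WT (horizontal axis) and in hy1 (vertical axis) for the 20955 genes tested, with the dashed line at equal change. Orange points are the 1085 genes with a higher and blue points the 731 with a lower change in hy1. Open circles are the 14 tested SAUR genes of the list matched by symbol, most of which lie far left of the line near 0 on the vertical axis.

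PIF targets and shade-response genes, which mark elongation growth, fell in 7 of 14 cases and rose in none (median -0.76), against 20.1% and 20.4% of all genes tested. In WT the median was -3.51, and 11 of the 14 had a higher change in hy1, also without the 3 WT libraries or without the pair. HAT2, a homeodomain factor of shade growth, fell from 46.7, 49 and 42.5 to 25.8, 26.5 and 31.5 CPM in hy1 (fell by 0.72 ± 0.095, adjusted p = 1.7e-05) and from 78.9, 84.6 and 89 to 15.2, 16.4 and 16.4 CPM in WT (interaction 1.67 ± 0.13, adjusted p = 2.9e-06). Its hy1 libraries thus lay below those of WT in darkness and above them at 24 h. ATHB-2, the classic shade marker, stood at 27.2, 21.7 and 20.3 CPM in dark hy1 and between 15.7 and 18.3 CPM at 24 h and did not pass the test (-0.42, adjusted p = 0.15), and its interaction was 1.79 ± 0.32 (adjusted p = 0.0022). At 12 h the list's median in hy1 had been -1.73, and 2 members were called higher and 1 lower at 24 h than at 12 h. Of all genes tested, 2.35% and 2.54% were so called, and 5.18% had a higher change in hy1 than in WT.

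SAUR genes, small auxin-induced proteins of cell expansion, had the largest median interaction of the lists examined, 5.46. The list held the 15 genes matched by annotation symbol and product name, which may not be the whole family. Of 14 tested, 3 fell in hy1 and none rose (median -0.65, against -1.53 at 12 h), the median in WT was -6.11, and 13 had a higher change in hy1, also without the 3 WT libraries or without the pair. Of all genes tested, 20.1% fell and 20.4% rose in hy1, and 5.18% had a higher change in hy1 than in WT. SAUR9 went from 6.94, 11.1 and 12.2 to 2.0, 1.51 and 2.63 CPM in hy1 (fell by 2.3 ± 0.35, adjusted p = 7.6e-05) and from 13.9, 17.5 and 14.3 to 0.529, 0.0994 and 0.429 CPM in WT. It was lower in hy1 than in WT in darkness and higher at 24 h. SAUR19 stood at 0.395, 0.63 and 1.2 CPM in hy1 at 24 h and had none in WT at 24 h, so that the size of its fitted interaction depends on a prior count. SAUR36, the third to fall (fell by 0.4 ± 0.13), was not called when any of 5 of the 6 libraries was left out (adjusted p from 0.055 to 0.078).

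Auxin response genes, the Aux/IAA repressors and GH3 conjugating enzymes, rose in 3 and fell in 12 of 30 cases (median -0.27, WT -1.19), against 20.4% and 20.1% of all genes tested. Of the 30, 18 had a higher change in hy1 than in WT and 1 a lower, against 5.18% and 3.49% of all genes tested. IAA19 fell from 66.3, 47.9 and 61.9 to 13.6, 14.7 and 18.3 CPM in hy1 (fell by 1.92 ± 0.28, adjusted p = 5.8e-05) and from 150, 170 and 167 to 7.15, 8.4 and 4.91 CPM in WT (interaction 2.66 ± 0.4, adjusted p = 0.00057). GH3.3 rose in hy1 from 35.9, 32 and 54.9 to 66, 46 and 74.5 CPM (0.6 ± 0.21, adjusted p = 0.033), with overlapping groups, while in WT it went from 113, 104 and 96.4 to 14.8, 11.9 and 12.1 CPM (interaction 3.61 ± 0.31, adjusted p = 4.9e-06). At 12 h its hy1 mean was 15.3 CPM. For both IAA19 and GH3.3 the hy1 libraries lay below those of WT in darkness and above them at 24 h. GH3.17 rose by 1.13 ± 0.15 and IAA14, a repressor of lateral root formation, by 0.73 ± 0.23, and IAA6 fell by 2.03 ± 0.27.

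Auxin synthesis and transport had 6 of 25 genes higher and 13 lower (median -0.34), against 20.4% and 20.1% of all genes tested. YUC8, YUC9 and YUC5, flavin monooxygenases that make auxin, fell by 3.19 ± 0.39, 3.99 ± 0.22 and 4.15 ± 0.35. YUC9 stood at 17.3, 20.7 and 16.8 CPM in darkness and at 1.03, 1.17 and 1.24 CPM at 24 h. TAA1, which makes their substrate, fell from 11.6, 14.6 and 9.89 to 2.79, 4.1 and 4.52 CPM (fell by 1.66 ± 0.31). Of the carriers, PIN7 fell from 159, 200 and 169 to 89, 89.6 and 88.7 CPM (fell by 0.98 ± 0.11) and ABCB19 from 289, 280 and 295 to 178, 176 and 186 CPM (fell by 0.68 ± 0.17), a smaller fall than from 500, 523 and 447 to 139, 138 and 86.8 CPM in WT (interaction 1.34 ± 0.24, adjusted p = 0.0025). ABCB19 was thus lower in hy1 than in WT in darkness and higher at 24 h. PIN5, a carrier of the endoplasmic reticulum, had no read in darkness and 2.21, 3.65 and 2.21 CPM at 24 h, at least 115-fold higher.

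**Figure D4:**
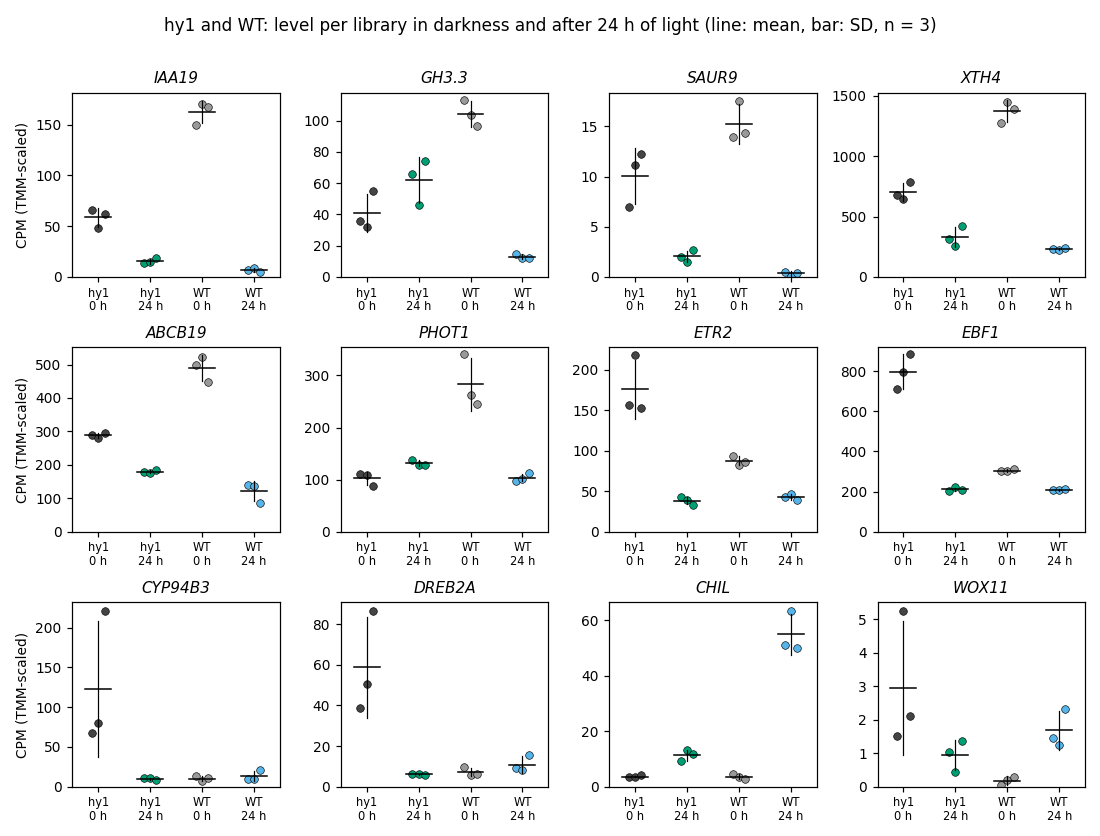
Level per library of 12 genes in hy1 and WT in darkness and after 24 h of light, in TMM-scaled CPM on linear axes that start at 0, with a line at the mean and a bar for the SD (n = 3). IAA19, SAUR9, XTH4 and ABCB19 fell further in WT than in hy1, and their hy1 libraries lay below those of WT in darkness and above them at 24 h. PHOT1 was high in dark WT alone, and ETR2, EBF1, CYP94B3 and DREB2A were higher in hy1 than in WT in darkness.

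Wall-modifying enzymes moved both ways. Of the XTH family, which cuts and rejoins xyloglucan, 6 of 24 rose and 14 fell (median -0.98), against 20.4% and 20.1% of all genes tested. By the interaction 8 had a higher and 3 a lower change than in WT, against 5.18% and 3.49% of all genes tested. XTH19 fell from 184, 232 and 220 to 9.62, 7.7 and 8.78 CPM (fell by 4.61 ± 0.31), XTH33 from 44, 52.5 and 41.5 to 5.59, 4.21 and 6.73 CPM (fell by 3.06 ± 0.17), and XTH4 from 675, 647 and 785 to 315, 254 and 424 CPM (fell by 1.09 ± 0.17). XTH4 went from 1272, 1452 and 1394 to 232, 221 and 238 CPM in WT (interaction 1.49 ± 0.24, adjusted p = 0.00083), so that hy1 lay below WT in darkness and above it at 24 h. XTH6 rose from 0.142, 0.137 and 0.469 to 3.83, 6.01 and 3.73 CPM (4.17 ± 0.53).

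Alpha-expansins rose in 2 and fell in 6 of 15 cases (median 0.09, WT -1.53), against 20.4% and 20.1% of all genes tested. Of the 15, 7 had a higher change than in WT, against 5.18% of all genes tested. EXPA8 stood at 34.9, 28.5 and 38.1 CPM in darkness and at 16.6, 14.9 and 25.7 CPM at 24 h in hy1 (-0.83 ± 0.42, adjusted p = 0.13), while in WT it went from 113, 114 and 124 to 5.35, 1.72 and 0.715 CPM (interaction 4.64 ± 0.63, adjusted p = 0.00026). Aquaporins, the water channels of membranes, rose in 2 and fell in 9 of 16 cases (median -0.69), against 20.4% and 20.1% of all genes tested. They summed to 22164 to 23892 CPM in darkness and 13860 to 15683 CPM at 24 h. TIP2, a tonoplast channel, fell from 10434, 10191 and 9776 to 3942, 3575 and 3118 CPM (fell by 1.52 ± 0.15, adjusted p = 1.2e-06) and PIP2;4 from 632, 705 and 651 to 30.3, 24.1 and 22.7 CPM (fell by 4.69 ± 0.35). PIP2A rose from 1547, 1271 and 1764 to 2872, 2801 and 2770 CPM (0.88 ± 0.24, adjusted p = 0.0081). Of the 16 aquaporins, 8 had a higher change in hy1 than in WT, TIP2 among them (1.2 ± 0.21), against 5.18% of all genes tested.

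Ethylene, a gas that shapes the dark-grown seedling, had 17 of 23 genes lower and 1 higher (median -1.47, WT -0.61), against 20.1% and 20.4% of all genes tested. EFE, the ethylene-forming enzyme, fell from 152, 422 and 148 to 26.5, 27.2 and 27.7 CPM (fell by 3.15 ± 0.39, adjusted p = 9.9e-06). Dark replicate 2 was the highest, as it was for EXPA12. ACS9, of the step before, had no read at 24 h and 4.5, 3.78 and 2.72 CPM in darkness, at least 169-fold lower, whereas ACS2 rose from 2.46, 2.66 and 2.51 to 6.94, 5.29 and 6.64 CPM (1.31 ± 0.16).

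Receptors and feedback genes of the pathway fell together. ETR2 fell from 156, 218 and 153 to 42.3, 39.6 and 33.6 CPM (fell by 2.19 ± 0.16), ERS1 from 258, 330 and 253 to 103, 97.7 and 103 CPM (fell by 1.47 ± 0.1) and EBF1, which targets the master factor EIN3 for breakdown, from 713, 796 and 884 to 204, 221 and 207 CPM (fell by 1.92 ± 0.091, adjusted p = 3.3e-10). In WT, EBF1 went from 301, 301 and 313 to 207, 206 and 213 CPM, and its change was lower in hy1 by 1.37 ± 0.12 (interaction log2 = -1.37, adjusted p = 7.7e-06). In all, 10 ethylene genes had a lower and 4 a higher change in hy1, against 3.49% and 5.18% of all genes tested. For EBF1, ETR2 and ERS1 the hy1 dark libraries lay above the WT dark libraries. Of the 19 tested ERF transcription factors matched by symbol, 12 fell and none rose (median -1.18), against 20.1% and 20.4% of all genes tested. That list may not be the whole family.

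Jasmonate genes fell in 12 and rose in 3 of 23 cases (median -0.53, WT 0.05), against 20.1% and 20.4% of all genes tested. By the interaction 6 were lower and 1 higher in hy1, against 3.49% and 5.18% of all genes tested. JAZ1, a repressor that jasmonate also induces, went from 80.8, 127 and 192 to 21.7, 20.0 and 21.1 CPM (fell by 2.67 ± 0.49, adjusted p = 0.00041). CYP94B3, which breaks jasmonoyl-isoleucine down, fell from 66.9, 79.8 and 221 to 11.2, 10.4 and 8.37 CPM (fell by 3.62 ± 0.46, and by 2.87 without dark replicate 3). VSP2, a storage protein, rose from 3.12, 1.72 and 1.85 to 7.31, 6.08 and 5.23 CPM (1.48 ± 0.35). MYC2, with 98.5% of its exon length shared with another gene, had no read in these libraries.

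Gibberellin genes rose in 4 and fell in 9 of 20 cases (median -0.35), against 20.4% and 20.1% of all genes tested. GA2OX1, an enzyme that inactivates the hormone, rose from 0, 0.0916 and 0.0469 to 1.82, 2.52 and 2.3 CPM (5.49 ± 0.53, 6.41 without dark replicate 2), and in WT it stayed between 0.475 and 0.733 CPM in both groups (interaction 5.22 ± 0.68, adjusted p = 0.00018). GA3OX2, of the last step of synthesis, rose by 4.44 ± 0.32, and GA20OX1, of the step before, fell from 1.4, 2.61 and 1.19 to 0.277, 0.45 and 0.23 CPM (fell by 2.44 ± 0.56). GASA4, a gibberellin-regulated peptide, fell from 385, 1017 and 722 to 47.4, 33.2 and 48.4 CPM (fell by 4.04 ± 0.48) and RGL1, a DELLA repressor, by 1.11 ± 0.15.

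Brassinosteroid genes fell in 8 of 14 cases and rose in none (median -0.49), against 20.1% and 20.4% of all genes tested. BR6OX1, an enzyme of the last steps, fell from 5.28, 4.79 and 6.23 to 0.869, 1.08 and 1.34 CPM in hy1 (fell by 2.31 ± 0.27) and from 12.5, 14.6 and 12.7 to 0.244, 0.0497 and 0.143 CPM in WT (interaction 4.12 ± 0.44, adjusted p = 3.2e-05). Cytokinin genes rose in 2 and fell in 5 of 17 cases (median 0.1), against the same 20.4% and 20.1%. ARR3, a type-A response regulator, fell by 4.36 ± 0.44 from 10.7, 10.5 and 7.87 to 0.395, 0.675 and 0.346 CPM, while its relative ARR7 rose by 1.34 ± 0.15 and IPT3, a synthesis enzyme, by 1.0 ± 0.18. Both directions occurred among the response regulators, so that the list has no single direction.

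Abscisic acid response genes fell in 13 and rose in 2 of 16 cases (median -1.43, WT -1.16), against 20.1% and 20.4% of all genes tested. NCED3, the limiting enzyme of synthesis, fell from 39.3, 35.9 and 76.7 to 7.13, 9.37 and 5.95 CPM (fell by 2.76 ± 0.26), and HAI1, a phosphatase of the pathway, from 47.2, 43.4 and 66.2 to 9.44, 15.3 and 6.43 CPM (fell by 2.33 ± 0.31). The 2 that rose were the cold-regulated KIN1 (4.81 ± 0.74), from 0.521, 0.412 and 0.773 to 13.5, 16.6 and 17.9 CPM, and COR15A, with no read in darkness and at least 19.5-fold higher. RD29B fell by 2.71 ± 0.41.

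Genes that respond within minutes to touch, cold or wounding fell in 12 of 12 cases (median -3.25, WT -2.22, hy1 12 h -3.17), against 20.1% of all genes tested. Their summed level was 414 to 920 CPM in the dark hy1 libraries, 64.6 to 72.4 CPM at 24 h and 69.8 to 74.6 CPM at 12 h. CBF2, a cold-response factor, stood at 47.8, 69 and 125 CPM in darkness and at 1.21, 1.91 and 1.54 CPM at 24 h (fell by 5.7 ± 0.5, adjusted p = 2.5e-07). CBF1 (fell by 7.41 ± 0.74, and fell by 6.78 without dark replicate 3) and CBF3 (fell by 3.53 ± 0.55), its near-identical neighbours, and CBF4 (fell by 8.3 ± 0.84, and fell by 12.73 without 24 h replicate 1) fell too. STZ, a zinc finger repressor of stress genes, fell from 91, 162 and 184 to 5.97, 7.54 and 5.92 CPM (fell by 4.49 ± 0.32), and WRKY40 from 26, 41.8 and 81.5 to 1.28, 1.44 and 0.807 CPM (fell by 5.4 ± 0.5). Dark replicate 3 was the highest for all of these genes. It was also the highest for the calmodulin-like CML24, whose dark levels lay closer together, from 55.4, 83.5 and 91.3 to 12, 12.1 and 14.2 CPM (fell by 2.59 ± 0.17).

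DREB2A, a factor of drought and heat response, went from 38.6, 50.8 and 86.7 to 6.03, 6.35 and 5.74 CPM in hy1 (fell by 3.28 ± 0.39, adjusted p = 5.3e-06) and was at 9.63, 5.79 and 6.47 and then 9.18, 8.03 and 15.5 CPM in WT. Its change was thus lower in hy1 (interaction -3.86 ± 0.52, adjusted p = 0.00025), with the difference between the genotypes in the dark libraries. For the touch, cold and wound list 3 of 12 had a lower change than in WT, WRKY40 and STZ among them, against 3.49% of all genes tested. Over the WRKY genes matched by symbol 16 of 55 tested fell and 3 rose (median -0.21), against 20.1% and 20.4% of all genes tested. WRKY70, a factor of salicylic acid defence, fell from 4.71, 9.76 and 4.85 to 0.257, 0.833 and 0.576 CPM (a change of -3.54 ± 0.49).

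Genes of darkness and sugar starvation fell in 15 of 19 cases and rose in none (median -1.03, WT -1.04, hy1 12 h -1.0), against 20.1% and 20.4% of all genes tested. DIN2, a dark-induced beta-glucosidase, fell from 117, 91.2 and 114 to 0.711, 0.293 and 0.277 CPM (fell by 7.94 ± 0.56, adjusted p = 2.3e-08, by 8.56 without 24 h replicate 1). ASN1, the dark-induced asparagine synthetase, fell from 243, 252 and 254 to 13.8, 7.86 and 4.59 CPM (fell by 4.83 ± 0.42). In WT, ASN1 reached 0.489, 0.994 and 0.191 CPM at 24 h from 217, 154 and 185 CPM, and its change was higher in hy1 by 3.55 ± 0.59 (interaction adjusted p = 0.0012). SEN1 (2.58 ± 0.41) and BCAT-2 (2.36 ± 0.4), an enzyme of branched-chain amino acid breakdown, also had a higher change in hy1. With ASN1 they made 3 of the 19 genes, against 5.18% of all genes tested. All 3 had means at 24 h above those at 12 h, but none of these differences passed the test.

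Oil reserve genes fell in 7 of 12 cases and rose in none (median -0.5), against 20.1% and 20.4% of all genes tested. ICL, the isocitrate lyase of the glyoxylate cycle, fell from 42.3, 16.1 and 24.5 to 3.95, 3.42 and 4.13 CPM (fell by 2.85 ± 0.38), and PCK1, which turns its product towards sugar, from 1172, 1109 and 1149 to 786, 728 and 661 CPM (fell by 0.66 ± 0.12). In WT, PCK1 had the same mean of 373 CPM in both groups, and its change was lower in hy1 (interaction -0.66 ± 0.17, adjusted p = 0.022). Of the ATG8 autophagy genes 5 of 9 fell and none rose (median -0.6), against the same 20.1% and 20.4%.

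Nitrogen assimilation genes rose in 7 and fell in 1 of 11 cases (median 0.99), against 20.4% and 20.1% of all genes tested. NIA1, nitrate reductase, rose from 62.8, 63 and 77.6 to 536, 580 and 518 CPM (3.01 ± 0.24, adjusted p = 8.8e-08), GLU1, the ferredoxin-dependent glutamate synthase of leaves, from a mean of 12.7 to a mean of 224 CPM (4.13 ± 0.27) and ASN2, the light-induced asparagine synthetase, from 30.4, 26.4 and 34 to 181, 181 and 166 CPM (2.54 ± 0.19). GSR_1, a cytosolic glutamine synthetase, fell from 380, 381 and 439 to 132, 114 and 108 CPM (fell by 1.76 ± 0.18). ASN1 and ASN2 thus moved in opposite directions.

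Iron genes rose in 6 and fell in 4 of 17 cases (median -0.15), against 20.4% and 20.1% of all genes tested. Compared with WT 5 had a lower change and none a higher, 9 and 1 without the 3 WT libraries, and 8 and 1 without the pair. By the same interaction 3.49% of all genes tested were lower and 5.18% higher. NAS1, which makes the metal carrier nicotianamine, rose from 7.13, 4.08 and 7.36 to 51.1, 53.4 and 52.9 CPM (3.08 ± 0.28) and was also higher at 24 h than at 12 h (1.53, adjusted p = 0.0025). FER1, a ferritin that stores iron in plastids, rose from 159, 160 and 149 to 208, 212 and 202 CPM (0.41 ± 0.12, adjusted p = 0.01). BTS, a repressor of the iron deficiency response, fell from 94.8, 102 and 102 to 87, 82.8 and 76.4 CPM (fell by 0.28 ± 0.1, adjusted p = 0.039).

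Aliphatic glucosinolates are sulphur-rich defence compounds made from methionine. Of their synthesis genes 8 of 8 tested rose (median 3.29, WT 3.9), against 20.4% of all genes tested. Between 12 h and 24 h 4 of them also rose, against 2.35% of all genes tested. At 12 h the list's median against darkness was still 1.16. CYP83A1 went from 2.04, 3.76 and 3.63 CPM in darkness to a mean of 9.67 CPM at 12 h and to 42.9, 44.9 and 48.8 CPM at 24 h (3.86 ± 0.33, adjusted p = 2e-07). BCAT4, the first enzyme of chain elongation, had means of 2.06, 2.64 and 22.9 CPM at the same times (24 h against 12 h 3.11, adjusted p = 0.00092). AK3, an aspartate kinase towards methionine, rose by 2.98 ± 0.38 and was likewise higher at 24 h than at 12 h (2.89), with 49.7% of its exon length shared. MYB28, a factor that drives the pathway, rose from 10.4, 15.2 and 15.6 to 52.2, 55.9 and 72.4 CPM (2.13 ± 0.18) and had a mean of 75.2 CPM at 12 h.

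Of the indolic branch, made from tryptophan, 4 of 6 rose and 1 fell, against 20.4% and 20.1% of all genes tested. MYB34, its regulator, rose from 40.4, 32.1 and 46.3 to 101, 112 and 125 CPM in hy1 (1.51 ± 0.16) and stayed between 68.7 and 88.1 CPM in both WT groups (interaction 1.44 ± 0.22, adjusted p = 0.00059). ER body genes rose in 3 and fell in 1 of 5 cases, a short list, against the same 20.4% and 20.1%. NAI2, which builds the bodies that PYK10 fills, rose from 735, 602 and 659 to 1233, 1114 and 1134 CPM (0.8 ± 0.24, adjusted p = 0.013, but 0.055 without dark replicate 2), and the beta-glucosidase gene BGLU22 fell from 144, 134 and 148 to 69.7, 57.7 and 56.1 CPM (fell by 1.22 ± 0.23).

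Tau-class glutathione transferases, detoxifying enzymes, rose in 9 and fell in 3 of 23 cases (median 0.37), against 20.4% and 20.1% of all genes tested. GSTU25 rose from 7.65, 4.86 and 10.7 to 38.5, 30.8 and 35.1 CPM in hy1 (2.17 ± 0.25), while in WT it went the other way, from 75.2, 69.8 and 54.8 to 15.6, 11.2 and 11.1 CPM (interaction 4.57 ± 0.35, adjusted p = 2e-06). The hy1 libraries lay below those of WT in darkness and above them at 24 h. GSTU19 rose from 667, 614 and 674 to 2110, 1940 and 1957 CPM (1.62 ± 0.34). GSTU3 fell from 12.6, 46.8 and 12.2 to 0.415, 0.63 and 0.738 CPM (fell by 5.33 ± 0.49, and by 4.37 without dark replicate 2).

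**Figure D5:**
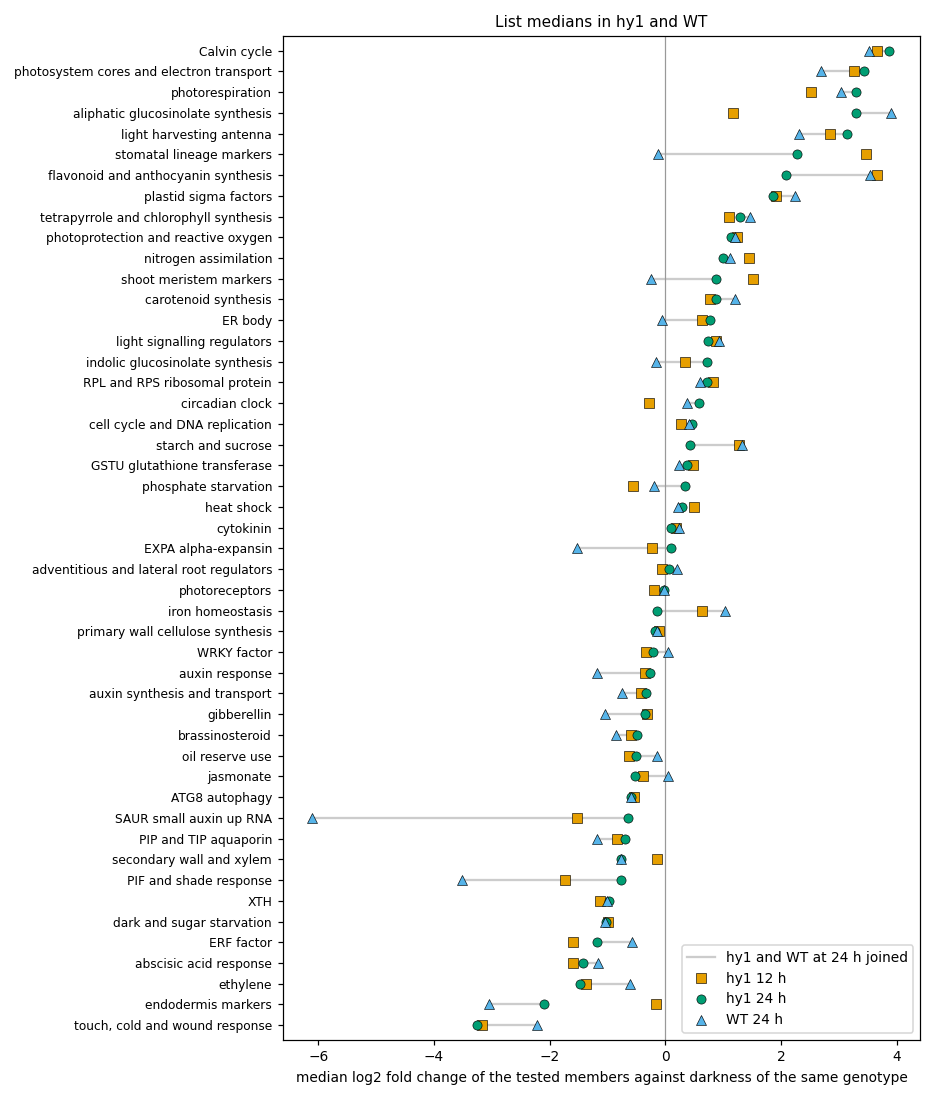
Median log2 fold change of the tested members of each list against darkness of the same genotype, for hy1 at 12 h (squares), hy1 at 24 h (circles) and WT at 24 h (triangles), with the 24 h values joined. The gap between hy1 and WT is widest for SAUR genes (-0.65 and -6.11), and the 12 h and 24 h medians of hy1 differ for aliphatic glucosinolate synthesis (1.16 and 3.29), endodermis markers (-0.16 and -2.1) and flavonoids (3.65 and 2.09).

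Marker transcripts of several tissues changed in the bulk RNA of the hypocotyl. Endodermis markers, most of them of the Casparian strip, fell in 7 of 8 cases and rose in none (median -2.1, WT -3.05), against 20.1% and 20.4% of all genes tested. By the interaction 3 of the 8 had a higher change in hy1 than in WT and 0 a lower, against 5.18% and 3.49% of all genes tested. Without the 3 WT libraries, and also without the pair, 5 were higher. At 12 h the median against darkness was -0.16, and 6 of the 8 were lower at 24 h than at 12 h, against 2.54% of all genes tested. CASP1, a scaffold of the strip, stood at 145, 180 and 179 CPM in darkness, 222 CPM on average at 12 h and 48.5, 58.7 and 55.1 CPM at 24 h (24 h against darkness fell by 1.63 ± 0.18, adjusted p = 2.5e-06). CASP5 fell from 32.8, 33.8 and 29.2 to 0.514, 0.63 and 0.53 CPM (fell by 5.83 ± 0.3) from a 12 h mean of 11.9 CPM. PER64, a peroxidase of the strip, fell from 121, 146 and 156 to 19.4, 23.6 and 27 CPM (fell by 2.59 ± 0.19) and MYB36, the factor that switches these genes on, by 0.87 ± 0.19. ESB1 (-0.3, adjusted p = 0.59) had low counts, with 84.3% of its exon length shared.

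Secondary wall and xylem genes fell in 13 of 14 cases and rose in none (median -0.76), against 20.1% and 20.4% of all genes tested. Of these genes 8 were lower at 24 h than at 12 h, against 2.54% of all genes tested, and the 12 h median was -0.15. CESA7, a cellulose synthase of xylem walls, fell from 91, 91.1 and 81.5 to 52.2, 46.8 and 32.8 CPM (fell by 1.0 ± 0.19, adjusted p = 0.00052), LAC4, a laccase of lignin, from 138, 140 and 127 to 55.1, 43.3 and 42.8 CPM (fell by 1.52 ± 0.28) and XCP1, a xylem protease, by 0.59 ± 0.21. In WT the list's median was -0.77, and 1 of its genes had a called interaction, against 8.67% of all genes tested. Primary wall cellulose synthesis had 2 of 8 genes higher, COB and CESA5, and 1 lower, against 20.4% and 20.1% of all genes tested. Both rises were lost when single libraries were left out (adjusted p up to 0.069).

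Genes known to control adventitious or lateral roots made up a list of 27 tested, of which 3 rose and 1 fell (median 0.06), against 20.4% and 20.1% of all genes tested. One of the 3, the cytokinin response factor CRF2 (0.51 ± 0.19, adjusted p = 0.038), was not called when any of the 6 libraries was left out (adjusted p 0.062 to 0.11). LBD29, a target of auxin response factors in root initiation, rose from 0.71, 0.504 and 0.89 to 2.05, 2.03 and 2.44 CPM (1.63 ± 0.26, adjusted p = 9.8e-05), while in WT it lay between 1.52 and 2.52 CPM in both groups (interaction 1.43 ± 0.35, adjusted p = 0.018). WOX11, which turns cells towards root founder fate, fell from 1.51, 5.25 and 2.11 to 1.03, 0.45 and 1.36 CPM (fell by 1.64 ± 0.51, adjusted p = 0.017), a call that rested on dark replicate 2 (-0.92, adjusted p = 0.17 without it; 0.082 without 24 h replicate 2). In WT it went from 0.0476, 0.214 and 0.289 to 1.47, 1.24 and 2.33 CPM, and its change was lower in hy1 (interaction -4.81 ± 0.79, adjusted p = 0.0012).

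LBD16 stood at 12.1, 14.8 and 13.1 CPM in darkness and at 12.7, 13.6 and 13.7 CPM at 24 h (0.00 ± 0.15, adjusted p = 0.99). PUCHI was at 1.78, 2.98 and 2.58 and then 4.17, 4.39 and 4.89 CPM (0.87 ± 0.57, adjusted p = 0.24), with no overlap between the groups, as for most genes tested. PLT1, a root stem cell factor, had 2.01, 1.49 and 1.5 and then 1.17, 2.21 and 1.66 CPM (0.01 ± 0.33) but went from 0.285, 0.237 and 0.222 to 0.611, 1.34 and 1.38 CPM in WT (interaction -2.14 ± 0.5, adjusted p = 0.014).

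Stomatal lineage markers rose in 5 and fell in none of 8 tested cases, against 20.4% and 20.1% of all genes tested. Their levels summed to 1.97 to 3.1 CPM in darkness and 7.61 to 15.5 CPM at 24 h. SPCH, the factor that starts the lineage, rose from 0.237, 0.183 and 0.0469 to 1.7, 3.04 and 2.95 CPM (4.02 ± 0.94, adjusted p = 0.0029), and its 12 h mean was 5.38 CPM. POLAR rose from 0.331, 0.206 and 0.0469 to 1.36, 2.48 and 1.94 CPM (3.29 ± 0.69, 3.88 without dark replicate 1) and in WT had 2.28, 1.42 and 0.667 and then 1.4, 1.02 and 0.238 CPM (interaction 3.99 ± 0.9, adjusted p = 0.011). BASL, a polarity protein of the lineage, was among the 5 (2.7 ± 0.9, adjusted p = 0.026) but was not called without dark replicate 2 (adjusted p = 0.091), 24 h replicate 2 (0.071) or 24 h replicate 3 (0.074). EPF2, a secreted peptide that limits the lineage, had reads in only 1 dark library (0.0473, 0 and 0 CPM, then 0.277, 0.495 and 0.369 CPM, a ratio of 24.2 with a counting interval of 6.36 to 205), and its fitted change of 4.38 was 7.1 without that library. Among shoot meristem markers CUC3 alone of 5 rose (2.14 ± 0.36), and STM, at 13.9, 15.6 and 15.9 and then 16.9, 19.5 and 15.1 CPM, did not pass the test (0.18 ± 0.31, adjusted p = 0.68). The levels of these markers moved beside the photosynthesis genes, and their part in those results was not tested.

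Cell division genes rose in 11 and fell in none of 21 cases, by small amounts (median 0.46), against 20.4% and 20.1% of all genes tested. MCM3, of the replicative helicase, rose from a mean of 17.9 to a mean of 32 CPM (0.84 ± 0.11, adjusted p = 1.8e-05), and CYCB1;1, a mitotic cyclin, from 7.43, 6.53 and 7.12 to 8.2, 9.48 and 11.3 CPM (0.46 ± 0.14, adjusted p = 0.018). The groups did not overlap for either gene, as for 6741 higher and 6915 lower genes of the 20955 tested. In WT the list's median was 0.4, and 1 of the 21 had a called interaction, against 8.67% of all genes tested.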

How the data were processed

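Poly-A RNA of hypocotyls was extracted with TRIzol and made into TruSeq libraries, per the labels' protocols. The authors deposited raw counts per gene from featureCounts 2.0.3, run with the paired-end option, without strand and without multimapping reads on a TAIR10 annotation, per the file headers, so that each mate counts as a read and antisense or overlapping genes cannot be separated. STAR 2.7.8a, StringTie 2.1.3 and HTSeq are named in the submitters' processing notes without a role. A deposited FPKM table was not used here.

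The 18 libraries were fitted together with edgeR 4.0.16 in R 4.3.3, with 6 group means, TMM scaling, the package's filter on low counts and the quasi-likelihood test, Benjamini-Hochberg adjusted over all 20955 genes in each of 3 comparisons (hy1 24 h against darkness, its interaction with genotype, and hy1 24 h against 12 h). A standard error is the log2 change divided by the root of its F statistic. Alternatives were DESeq2 1.42.0, other scalings and filters, stricter thresholds, the libraries of a contrast alone, a replicate block and leaving out libraries. Intervals and floors (3 counts over a group) cover counting error only. They treat every count as independent, although both mates of a fragment can be counted, so they may be too tight. Promoters were read from the RefSeq TAIR10.1 genome, in which 99.91% of 32548 matched genes have the coordinates of the count table.

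The members and the 42 gene lists (657 of 665 entries used) were chosen with earlier results of these data known. Families were matched by annotation symbol and trimmed by product name after values were seen, so a family list may lack members. Genes named by rule were HY1 first, the 10 largest changes in each direction with a mean of at least 5 CPM over the 6 libraries and groups that do not overlap, the 5 largest changes in CPM, up to 4 members a list, and the most different genes of the other comparisons. Other genes were chosen after their values were seen. Some genes that this rule names are not reported here.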

Additional observations from a re-analysis of the deposited data

Results flagged for a closer look

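Each gene here had a change at 24 h that differed between hy1 and WT by the edgeR interaction test, and they are the 5 largest differences in each direction that the naming rule gave. CYP78A10, a cytochrome P450, stood at 1.07, 1.1 and 1.76 CPM in dark hy1 and at 0.079, 0.0901 and 0 CPM at 24 h, while WT went from 16.5, 23 and 19.3 CPM to no read. Its fitted interaction of 8.34 (adjusted p = 0.004) and that of ACS5, an ethylene synthesis enzyme, of 7.38 (adjusted p = 0.00033) depend on the prior count, since WT had no read at 24 h for either gene.

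AT5G37950, annotated as a UDP-glycosyltransferase, went from 5.75, 6.23 and 6.63 to 1.78, 1.85 and 2.88 CPM in hy1 and on average from 22.2 to 0.0611 CPM in WT (interaction 6.93, adjusted p = 5.3e-06). AT2G19660, a C1 domain gene, kept 1.11, 0.675 and 0.714 CPM in hy1 at 24 h (interaction 6.69, adjusted p = 1.2e-05, and 9.41 without WT 24 h replicate 3, its only library with reads in that group). AT3G42800 stood at 4.78, 2.73 and 5.01 and then 1.72, 2.3 and 3.5 CPM in hy1 (interaction 5.53, adjusted p = 3.2e-06), and its fall in hy1 itself was not called in 4 of the fits with a library left out.

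In the other direction, CML38, a calmodulin-like gene of wounding, had an interaction of -4.19 (adjusted p = 0.0015), -3.42 without hy1 dark replicate 3 and -4.85 without WT dark replicate 1. AT1G49570, a peroxidase, fell from 141, 295 and 192 to 8.75, 10.3 and 9.27 CPM in hy1 and averaged 4.94 and 3.71 CPM in WT (interaction -4.05, adjusted p = 0.0034, -4.8 without WT dark replicate 3 and -3.39 without WT 24 h replicate 3). AT4G34380, a WD40 repeat gene, fell from 15.6, 39.8 and 18.6 to 0.968, 1.08 and 1.06 CPM in hy1 and averaged 1.15 and 0.764 CPM in WT (interaction -3.98, adjusted p = 5.3e-05). For CYP94B3 the interaction was -3.97 (adjusted p = 0.00071, -3.21 without hy1 dark replicate 3) and for DREB2A -3.86 (adjusted p = 0.00025). In these 5 genes the hy1 dark libraries stood above the WT dark libraries.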

How the results depend on the processing

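For hy1 24 h against darkness, the count of 8484 called genes fell to 3548 (1929 higher, 1619 lower) at a fold of at least 2 and to 5987 at an adjusted p under 0.01, and was 6856 to 7542 with a library left out, 9095 with DESeq2, 11796 with the 6 libraries alone, 12298 without the 3 WT libraries (replicates 2 and 3 at 12 h, replicate 3 at 24 h) and 11652 without the pair that correlated least with their groups (replicate 1 at 12 h, replicate 3 at 24 h). Other filters, scalings and the replicate block gave 8136 to 8585. For the interaction, 3568 genes (1980 higher, 1588 lower) were called without the 3 WT libraries, 2954 (1843 and 1111) without the pair, 836 (544 and 292) at an adjusted p under 0.01 and 1142 (404 lower) at a fold of at least 2. With 1 library left out, the genes lower by the interaction were 406 to 668. For 24 h against 12 h, DESeq2 called 1716 (908 and 808), the libraries of the contrast alone 3117 (1571 and 1546), and an adjusted p under 0.01 gave 471 (230 and 241) and a fold of at least 2 gave 384 (213 and 171). Leaving out a library gave 522 to 663 (271 to 354 higher, 251 to 317 lower). Without the 3 WT libraries it gave 3500 (1642 and 1858), and without the pair 2832 (1436 and 1396). The fits without the pair, and those of the hy1 comparisons without the 3 WT libraries, were chosen after seeing the data. The cause of these differences was not tested.

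Of the named genes' values, 3680 kept their direction and call, 36 lost and 2 gained a call, and none reversed. The main fit did not pair samples by replicate number. For replicates 1, 2 and 3, deviations from group means correlated at -0.029, 0.0126 and 0.0368 between hy1 24 h and darkness. Between hy1 24 h and 12 h they correlated at 0.194, -0.0124 and 0.138. With a replicate block 8585, 1781 and 1038 genes were called in the 3 comparisons. Upper-quartile scaling moved the median of all genes by 0.04 and the calls to 4640 higher and 3741 lower (against 4273 and 4211), and in the interaction to 1270 and 570 (against 1085 and 731). Genes near 1 CPM or below rest on few reads, and there a missed call says little.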
